A study of Homo sapiens with 24 samples.

Results

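The data described here are the 12 U2OS libraries collected before recovery, and the quantity of interest is the genotype by treatment interaction, the response of ID3-KO cells to mocetinostat minus the response of WT cells, gene by gene. The members were chosen by sample title (U2OS WT or ID3-KO, untreated or treated, 3 replicates in each of 4 groups) and make up 12 of the 24 libraries of the series. U2OS is a human osteosarcoma line. Mocetinostat is an inhibitor of class I histone deacetylases (HDACs), given for 24 h. Collection before any recovery was inferred from the design text, which names the treatment of these cells without one. The other 12 libraries come from AID-DIvA cells, a U2OS derivative that carries the AsiSI restriction enzyme, WT or ID3-KO, untreated or treated with mocetinostat and then allowed to recover. The sources used here give no dose for the RNA-seq experiment and do not say how many ID3-KO clones were used, so the genotype and the KO line cannot be told apart.

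ID3 is an inhibitor of DNA binding protein: it pairs with E proteins, basic helix-loop-helix (bHLH) transcription factors, and keeps them off E-box sequences (CANNTG). HDAC1, HDAC2 and HDAC3, which are class I HDACs, remove acetyl groups from histones and sit in corepressor complexes. HDAC inhibitors raise histone acetylation and change the transcription of many genes in both directions.

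Total counts per library ran from 46285533 to 70692114. Levels are given as CPM, counts scaled to a common library total with TMM factors over the 12 libraries. ID3 itself stood at 84.4, 56.2 and 53.9 CPM in untreated WT cells and at 33.5, 31.2 and 30.3 CPM in untreated ID3-KO cells, with 93.2, 81.8 and 80.7 and 42.2, 31.6 and 36.5 CPM after treatment. KO and WT libraries did not overlap in either state. ID3 RNA was lower but still present in the KO cells, by -1.03 untreated and -1.21 treated on the log2 scale. With replicate 1 of untreated WT left out, the untreated difference was -0.80 and the treated one -1.21. Of the osteoblast markers, RUNX2, SPARC and COL1A1 were expressed in each library, while SP7 stayed at or below 0.0821 CPM and BGLAP at or below 0.713 CPM. Of the markers of other cell types, CD3E and GRHL2 were at or near 0, while EPCAM (5.51 to 10.8 CPM) and VWF (3.10 to 10.5 CPM) were detected. In the untreated WT group replicate 1 differed from the others, with 27361 genes detected against 29364 to 32768 in the other 11 libraries. Its counts ran higher for short and lower for long genes, so results are given with and without this library.

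The first question was which genes responded differently in ID3-KO cells. Over all 12 libraries, 488 of 22647 genes tested (2.15%) passed an adjusted p of 0.05 for the interaction in edgeR's quasi-likelihood fit, adjusted after Benjamini and Hochberg. The response was higher in KO cells for 249 genes (1.1%) and lower for 239 (1.06%). A higher response means that the treated-to-untreated ratio was larger in KO than in WT cells, whether the gene rose or fell. In bulk RNA a change in the share of cells that express a gene and a change of its level per cell cannot be told apart. Interactions had a median size of 0.78 on the log2 scale, and 154 exceeded 1. With replicate 1 of untreated WT left out, the test called 2091 of 23164 genes (9.03%), 1034 higher (4.46%) and 1057 lower (4.56%). Of the 488 genes, 487 were called again with the same sign, so the 12-library list is close to a subset of the longer one. The last genes inside the threshold were HCN4 (adjusted p = 0.04974) and CUL4B (adjusted p = 0.04998), and the first outside it were IL15 (adjusted p = 0.0505) and CAPN2 (adjusted p = 0.0506), all from the same edgeR test.

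The 488 genes were mostly not genes that responded in one genotype alone. Among the 249 with a higher response, 121 rose in both genotypes, 40 rose in KO cells only by the test, 40 rose in KO and fell in WT cells, 22 fell in WT cells only by the test, and 26 fell in both. Among the 239 with a lower response, 84 rose in both, 38 rose in WT cells only by the test, 30 fell in KO and rose in WT cells, 31 fell in KO cells only by the test, and 56 fell in both. Being called in 1 genotype only is a statement about each test, and the interaction is the test of the difference. The treatment effect was itself called for 57.1% of all genes in KO cells (30.4% higher, 26.6% lower) and for 57.2% in WT cells (29.7% higher, 27.5% lower), so a called response is the common case here. In 70 of the 488 genes the treatment effects were called in opposite directions. The median response of the genes with a higher response was 1.10 in KO and 0.16 in WT cells, and that of the genes with a lower response was -0.20 in KO and 0.53 in WT cells, on the log2 scale.

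**Figure D1:**
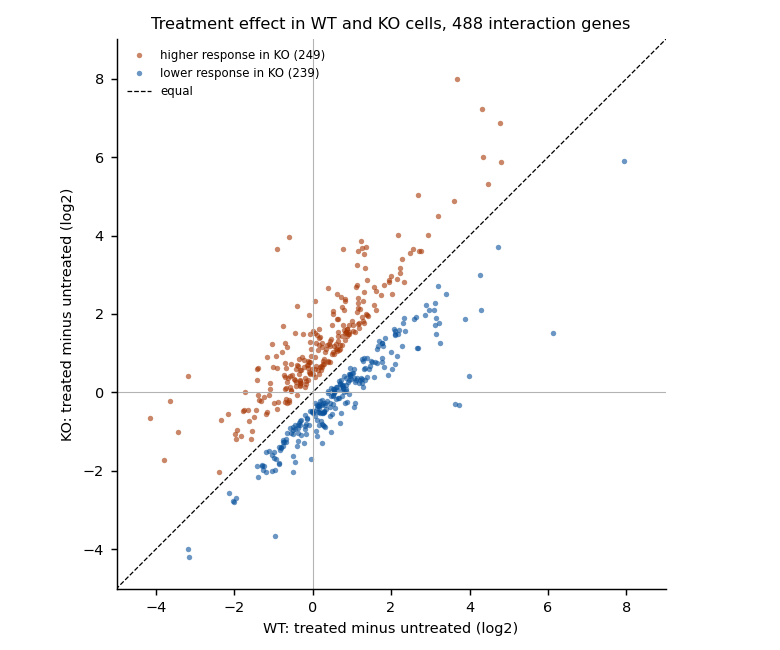
Treatment effect (treated minus untreated, log2) in WT cells (x axis) and ID3-KO cells (y axis) for the 488 genes with a called interaction, 1 point a gene. Points above the dashed line of equal effects are the 249 genes with a higher response in KO cells and points below it the 239 with a lower one. The points in the upper left and lower right quadrants include the 70 genes whose effects were called in opposite directions.

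Seen from the other side, the interaction is the genotype gap (KO minus WT) in treated cells minus the gap in untreated cells. The gap was narrower in treated than in untreated cells for 400 of the 488 genes (82.0%), against 58.3% of all genes tested. Most genes with a higher response were lower in untreated KO cells: of the 249, 137 were lower in untreated KO cells with no called gap after treatment, 68 were lower in both states, 18 went from lower to higher, 22 were higher after treatment only by the test, and 4 were higher in both. Their median gap shrank from 1.04 to 0.27 in absolute log2 units. The genes with a lower response mirrored this: of the 239, 113 were higher in untreated KO cells with no called gap after treatment, 56 were higher in both states, 16 went from higher to lower, 46 were lower after treatment only by the test, and 8 were lower in both. Here the median gap went from 0.69 to 0.27. Over all genes tested a gap was called for 25% in untreated cells (11.5% higher and 13.5% lower in KO) and for 19.4% in treated cells (9.07% higher and 10.3% lower). All of these values come from the same 12 libraries as the interaction, which is large wherever the gaps differ, so the share describes the genes called and is not a further test. With replicate 1 of untreated WT left out, the gap was narrower in 1380 of 2091 genes (66.0%), against 54.2% of all genes, and opposite effects were called for 158. Of the higher responses in that fit, 35.2% were lower in untreated KO cells with no called gap after treatment, against 55.0% with all 12 libraries. Those higher after treatment only by the test made up 24.3%, against 8.84%. For the lower responses the matching shares were 33.8% against 47.3%, and 26.0% against 19.2%. Treated gaps were called for 8685 genes in that fit, against 4389 with all 12 libraries.

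**Figure D2:**
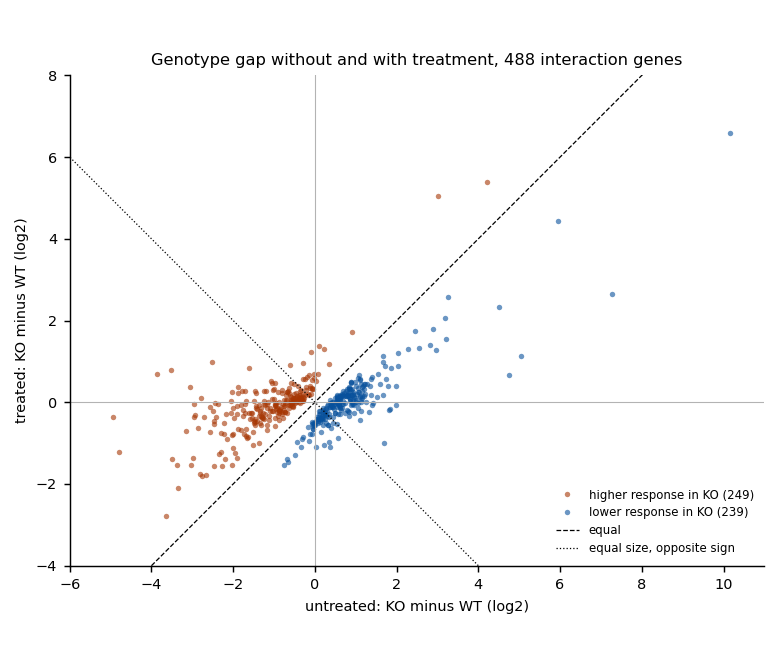
Genotype gap (KO minus WT, log2) in untreated cells (x axis) and treated cells (y axis) for the same 488 genes, 1 point a gene. The dashed line marks an equal gap and the dotted line a gap of equal size and opposite sign. The 221 genes with a higher response and the 179 with a lower response that lie closer to the horizontal zero line than to the vertical one had a narrower gap after treatment.

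LMCD1, a LIM domain protein that represses GATA6, had the smallest adjusted p (gene at chromosome 3, 8543393 to 8609805, plus strand, hg19/GRCh37). It stood at 93.8, 93.8 and 88.2 CPM in untreated and 70.2, 67.9 and 65.1 CPM in treated WT cells, and at 16.9, 15.4 and 17.2 CPM in untreated and 49.5, 44.7 and 46.02 CPM in treated KO cells. None of the 4 groups overlapped: treatment lowered LMCD1 in WT cells and raised it in KO cells, where it stayed below the WT level. The interaction was 1.94 (SE 0.093, adjusted p = 1.95e-07), and 1.93 with replicate 1 of untreated WT left out.

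OASL, an interferon-inducible relative of the oligoadenylate synthetases (chromosome 12, 121458095 to 121477045, minus strand), rose in both genotypes. WT cells went from 5.70, 5.39 and 5.33 to 13.8, 14.1 and 13.96 CPM. In KO cells the level started below 1 CPM, at 0.784, 0.82 and 0.886, and reached 11.8, 9.94 and 11.04 CPM, close to the WT level but still below it (gap -0.35, adjusted p = 0.00585, edgeR). The response was 3.71 in KO and 1.35 in WT cells, an interaction of 2.36 (SE 0.13, adjusted p = 8.90e-07).

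CXCL14, a chemokine (chromosome 5, 134906373 to 134914969, minus strand), fell in both genotypes towards the same level. It went from 50.5, 65.4 and 61.3 to 5.93, 4.97 and 5.39 CPM in WT cells and from 10.3, 10.8 and 11.7 to 5.34, 5.19 and 5.62 CPM in KO cells. Treated WT and KO libraries overlapped (gap -0.01, SE 0.11), and the interaction was 2.42 (SE 0.14, adjusted p = 9.76e-07). MFSD2A, a lysophosphatidylcholine transporter (chromosome 1, 40420802 to 40435638, plus strand), met from opposite sides. It fell from 16.3, 16.9 and 16.95 to 9.31, 9.52 and 10.3 CPM in WT cells and rose from 3.92, 4.40 and 5.11 to 9.30, 8.91 and 9.25 CPM in KO cells. The interaction was 1.81 (SE 0.13, adjusted p = 5.42e-06), and the treated gap was -0.08 (SE 0.087).

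On the other side, ADRA1B, the alpha-1B adrenergic receptor (chromosome 5, 159343790 to 159399551, plus strand), stood at 27.3, 26.4 and 25.4 CPM in untreated and 29.6, 31.8 and 31.7 CPM in treated WT cells. KO cells went from 57.3, 56.4 and 55.6 to 24.1, 21.3 and 23.9 CPM, from above the WT level to below it. The interaction was -1.52 (SE 0.091, adjusted p = 9.76e-07).

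The sequence before the transcription start is shown for 4 of these genes, because ID3 acts through factors that bind E-boxes and these genes have the clearest interactions in either direction. The stretches are the 250 bases before the RefSeq start, build GRCh38.p14, written 5′ to 3′ along the gene, with each CANNTG (E-box) and each GGGCGG or CCGCCC (GC box) in capitals.
LMCD1 (chr3:8501573-8501822, plus strand): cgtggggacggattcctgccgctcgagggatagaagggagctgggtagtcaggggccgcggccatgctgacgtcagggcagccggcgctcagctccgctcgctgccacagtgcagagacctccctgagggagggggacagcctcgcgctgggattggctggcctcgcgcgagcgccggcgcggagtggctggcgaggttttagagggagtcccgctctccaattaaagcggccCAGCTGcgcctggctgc
CXCL14 (chr5:135578992-135579241, minus strand): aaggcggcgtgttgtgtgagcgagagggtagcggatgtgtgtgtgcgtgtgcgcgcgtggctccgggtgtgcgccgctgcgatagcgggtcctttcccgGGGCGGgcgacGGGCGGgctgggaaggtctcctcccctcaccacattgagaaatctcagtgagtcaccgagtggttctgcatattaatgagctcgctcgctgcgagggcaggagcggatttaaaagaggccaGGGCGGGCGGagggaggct
MFSD2A (chr1:39954895-39955144, plus strand): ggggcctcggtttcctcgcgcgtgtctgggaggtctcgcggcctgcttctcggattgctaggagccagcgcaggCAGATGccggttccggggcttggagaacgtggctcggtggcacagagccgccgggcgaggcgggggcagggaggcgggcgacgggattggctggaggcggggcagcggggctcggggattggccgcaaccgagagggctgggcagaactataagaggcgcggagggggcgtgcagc
ADRA1B (chr5:159916232-159916481, plus strand): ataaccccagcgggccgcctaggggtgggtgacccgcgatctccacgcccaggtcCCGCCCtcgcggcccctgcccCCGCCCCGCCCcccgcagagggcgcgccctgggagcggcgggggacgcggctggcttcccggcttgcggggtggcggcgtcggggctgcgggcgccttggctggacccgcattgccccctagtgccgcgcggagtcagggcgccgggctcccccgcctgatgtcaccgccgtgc
LMCD1 held 1 E-box, CAGCTG, and MFSD2A held 1, CAGATG. CXCL14 and ADRA1B held no CANNTG in this window, and 4 and 3 GC boxes in turn, some of them overlapping. In windows of 300 bases (250 before and 50 after the start), CANNTG occurs in 61.9% of the 13976 promoters of tested genes and GGGCGG on either strand in 64.8%, so neither motif sets a gene apart. CAGCTG, itself a case of CANNTG, occurs in 17.3%. OASL and UNC13D had no entry in the table used. Promoters were matched for 337 of the 488 interaction genes (69.1%), fewer than the 80% needed, so a comparison of motif shares between the interaction genes and all genes is void.

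**Figure D3:**
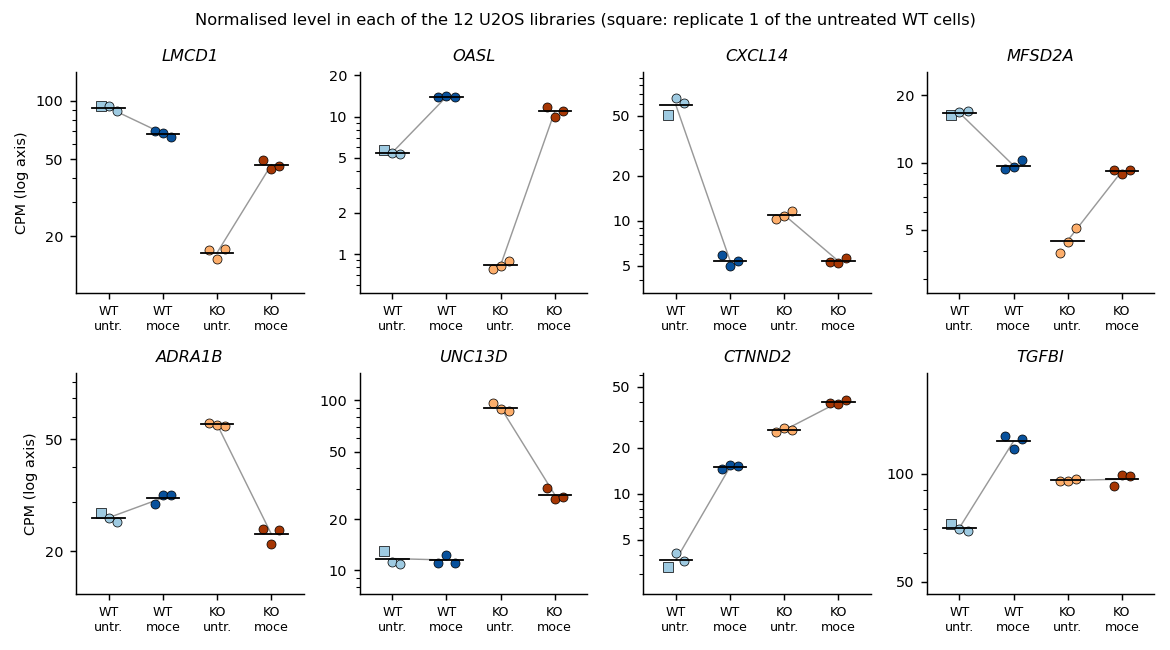
CPM in each of the 12 libraries (points, log axis) for 4 genes with a higher response in KO cells (top) and 4 with a lower response (bottom), by group; short bars are group means and grey lines join the means of a genotype. Replicate 1 of the untreated WT cells (square) lies within a factor of 1.5 of its group's other replicates in each panel, and the untreated WT and KO groups do not overlap in any panel.

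UNC13D, which primes cytotoxic granules for exocytosis (chromosome 17, 73823306 to 73840798, minus strand), was flat in WT cells, at 12.99, 11.2 and 10.9 CPM untreated and 11.1, 12.4 and 10.98 CPM treated. In KO cells it went from 96.8, 88.9 and 86.4 to 30.3, 26.3 and 26.8 CPM and stayed above WT. The interaction was -1.67 (SE 0.12, adjusted p = 5.95e-06). CTNND2, a delta-catenin of adherens junctions (chromosome 5, 10971952 to 11904155, minus strand), rose in both genotypes, from 3.34, 4.09 and 3.63 to 14.4, 15.4 and 15.1 CPM in WT and from 25.2, 26.8 and 25.97 to 39.1, 38.7 and 41.1 CPM in KO cells. The KO level was higher in both states and the interaction was -1.41 (SE 0.10, adjusted p = 6.70e-06). TGFBI, a TGF-beta-induced matrix protein (chromosome 5, 135364584 to 135399507, plus strand), rose in WT cells from 72.3, 70.2 and 69.5 to 127, 117 and 125 CPM. In KO cells it was at 95.5, 95.6 and 96.5 CPM untreated and 92.2, 99.04 and 98.4 CPM treated, and the 2 groups overlapped. Its interaction was -0.79 (SE 0.079, adjusted p = 7.33e-05).

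SOX2, a pluripotency and neural factor, fell in both genotypes, from 22.9, 24.5 and 26.3 to 5.60, 5.26 and 5.74 CPM in WT and from 12.1, 11.7 and 11.3 to 7.10, 8.20 and 8.51 CPM in KO cells, which changed the order of the genotypes (interaction 1.59 (SE 0.12, adjusted p = 7.47e-06)). MEF2C, a muscle and neural MADS-box factor, went from 3.13, 3.85 and 3.74 to 2.14, 2.03 and 2.15 CPM in WT and from 0.704, 0.506 and 0.591 to 1.97, 1.95 and 1.92 CPM in KO cells. The WT libraries fell and the KO libraries rose to nearly the same level, an interaction of 2.46 (SE 0.20, adjusted p = 1.49e-05). PPARGC1A, the coactivator PGC-1alpha of mitochondrial biogenesis, rose from 0.583, 0.506 and 0.498 to 6.51, 6.22 and 7.16 CPM in KO cells. In WT cells it was at 2.45, 4.33 and 4.16 CPM, with replicate 1 the low one, and at 6.14, 6.33 and 6.17 CPM treated. The interaction was 2.88 (SE 0.27, adjusted p = 4.27e-05), and 3.11 without that replicate.

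IL8 (CXCL8), a neutrophil chemokine, went from 2.66, 2.02 and 1.999 to 45.6, 41.4 and 46.8 CPM in WT cells and from 0.282, 0.244 and 0.332 to 49.4, 40.4 and 39.8 CPM in KO cells. Treated groups overlapped, although untreated KO cells had far less (gap -2.96), and the interaction was 2.91 (SE 0.23, adjusted p = 1.21e-05). CCL2, a monocyte chemokine, fell from 6.96 to 8.63 to 5.95 to 6.22 CPM in WT and rose from 2.97 to 3.21 to 5.15 to 5.84 CPM in KO cells (interaction 1.18 (SE 0.14, adjusted p = 3.36e-04)). SLN, which encodes sarcolipin, a membrane regulator of the calcium pump, rose from 0.201 to 0.419 to 3.28 to 4.29 CPM in KO and from 0.764 to 0.988 to 1.90 to 2.16 CPM in WT cells, and so went from below to above the WT level.

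The other higher responses with the smallest adjusted p were VWA5B2 (1.57), the carboxypeptidase M gene CPM (1.43) and GFPT2 (1.13), an enzyme of hexosamine synthesis. All of them rose in both genotypes from a lower KO start: GFPT2 went from 6.26 to 6.996 to 31.6 to 32.3 CPM in KO and from 21.6 to 23.5 to 50.3 to 52.2 CPM in WT cells, and the treated KO libraries were still the lower ones.

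NTM, the cell adhesion molecule neurotrimin, had a lower response. It fell from 98.7 to 104 to 26.1 to 30.05 CPM in KO and from 44.2 to 49.3 to 25.4 to 26.8 CPM in WT cells. With all 12 libraries no treated gap was called (0.13, SE 0.07). With replicate 1 of untreated WT left out it was called (0.14, adjusted p = 0.0317, edgeR). SLC22A5, a carnitine transporter, fell from 35.1 to 37.02 to 19.5 to 21.4 CPM in KO cells and was at 15.5 to 17.2 and 17.2 to 20.3 CPM in WT cells. ZNF283, a zinc finger gene, fell from 53.4 to 54.7 to 22.2 to 27.4 CPM in KO cells, close to the untreated WT cells (22.6 to 27.6 CPM). Both had an interaction near -1, -1.06 and -1.21.

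CYP24A1, the vitamin D 24-hydroxylase, crossed over: KO cells went from 25.2 to 25.95 to 13.3 to 15.2 CPM and WT cells from 13.99 to 14.8 to 16.5 to 19.8 CPM (interaction -1.15 (SE 0.11, adjusted p = 5.83e-05)). ADAMTS15, a matrix protease, rose in both but less in KO cells (0.34 against 1.25). SH2D3C, a signalling adaptor, reached 20.8 to 25.2 CPM in KO and 23.5 to 24.6 CPM in WT cells from starts of 6.37 to 7.40 and 2.39 to 2.83 CPM.

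The lower responses of the greatest size belonged to genes with very few counts in untreated WT cells. DLX4, a homeobox gene, had 0, 0 and 1 counts in the untreated and 7, 6 and 9 counts in the treated WT libraries, against 478, 473 and 450 and then 725, 563 and 728 counts in the KO libraries. The pseudogene SNX18P24 had 0, 2 and 0 counts in untreated WT cells, and its reads may be shared with near-identical copies. CYP4F3, a leukotriene hydroxylase, had 2 counts in each untreated WT library and 7 to 8 in each untreated KO library, and then 8.26 to 9.09 CPM in treated WT and 7.50 to 8.64 CPM in treated KO cells, which overlapped. The fitted interactions (-3.58 for DLX4, -4.60 for SNX18P24 and -2.05 for CYP4F3) rest on those few counts and depend on the fit's prior count. PRSS23, a serine protease, had a better measured start of 0.271 to 0.333 CPM in WT and 0.941 to 1.09 CPM in KO cells and an interaction of -1.99 (SE 0.29, adjusted p = 0.00167).

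TGF-beta and BMP signalling genes, ligands and receptors through SMAD proteins to targets, held 6 lower and 0 higher responses among 32 tested (18.8% called, against 2.15% of all genes). The ligands TGFB2, TGFB3 and BMP4 were among them. TGFB2 fell from 166, 164 and 157 to 67.8, 84.3 and 78.7 CPM in KO cells and from 98.7, 103 and 115 to 88.01, 84.2 and 83.8 CPM in WT cells (interaction -0.77 (SE 0.11, adjusted p = 0.00178)). BMP4 fell from 150.1, 153 and 155 to 58.3, 66.5 and 66.6 CPM in KO and from 92.9, 76.5 and 77.9 to 54.9, 51.3 and 49.7 CPM in WT cells (interaction -0.59 (SE 0.11, adjusted p = 0.0138)). Both started above WT in KO cells.

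INHBA, which encodes the subunit of activin A, rose from 74.2, 108 and 108 to 163, 159.8 and 168 CPM in WT cells, replicate 1 being the low one, and was at 57.6 to 62.8 and 57.8 to 69.7 CPM in KO cells. SMAD7, the inhibitory SMAD, fell in KO cells (-0.36) and rose in WT cells (0.17). TGFB3 fell in both and more in KO cells (-0.46).

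Over all 32 genes the median interaction was -0.23, with 13 above 0, against a median of 0.00 over all genes. Without replicate 1 of the untreated WT cells 12 were called lower and 3 higher, with a median of -0.19, in a fit that called 9.03% of all genes. The list leaned one way with and without that replicate, but the 2 sets share all other libraries, so the second is not separate support. TGFB1, the receptors and SMAD2 to SMAD5 were not called with all 12. In AID-DIvA cells after recovery, grouped by title, the list held 1 higher and 0 lower responses, with a median of -0.02.

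Many neuronal genes are silenced outside neurons by the repressor REST together with HDAC-containing corepressors. The neuronal list held 4 higher and 0 lower responses among 25 tested (16%, against 2.15% of all genes), with a median of 0.30. Treatment raised 21 of the 25 in each genotype. Over all genes a rise was called for 30.4% in KO and 29.7% in WT cells. SYP, the synaptic vesicle protein synaptophysin, rose from 5.65 to 6.26 to 67.2 to 76.996 CPM in KO and from 12.8 to 16.1 to 94.7 to 97.4 CPM in WT cells. SYN1, synapsin I, rose from 0.262 to 0.332 to 16.03 to 19.5 CPM in KO and from 1.33 to 1.58 to 40.03 to 42.1 CPM in WT cells, and so kept a lower KO level. GAP43 (0.91) and RTN1 (0.43) were the others. Without replicate 1 of the untreated WT cells 10 were called higher and 2 lower, in a fit that called 9.03% of all genes.

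The osteoblast lineage list had 3 higher responses among 14 tested (21.4%). RUNX2, the bone lineage factor, fell in both genotypes and less in KO cells (0.56). SPP1, osteopontin, rose from 15.5 to 18.3 to 52.7 to 58.8 CPM in KO and from 28.98 to 31.5 to 58.4 to 63.4 CPM in WT cells. TNFRSF11B, the RANKL decoy osteoprotegerin, fell in WT cells (-1.09), with 0.24 in KO cells (adjusted p = 0.105, edgeR). With replicate 1 of untreated WT left out, the KO rise was the same size and was called (0.24, adjusted p = 0.0166, edgeR).

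Of 17 tissue bHLH factors tested, 2 had a higher and 1 a lower response (17.6%). BHLHE41 fell in WT cells, from 45.8, 55.7 and 55.02 to 29.6, 23.6 and 24.3 CPM, and rose in KO cells, from 15.05, 16.4 and 16.7 to 25.4, 25.4 and 24.5 CPM, so that the treated groups overlapped (interaction 1.66 (SE 0.13, adjusted p = 1.49e-05)). Its relative BHLHE40, another circadian repressor, went the other way: it rose in WT cells from 181 to 206 to 281 to 291 CPM and was at 140.1 to 149.8 and 142.2 to 151 CPM in KO cells (-0.54 (SE 0.088, adjusted p = 0.00425)). HEY1, a Notch target, rose in both, more in KO cells (0.74). With all 12 libraries, none of the 7 ID and E protein genes was called by edgeR or DESeq2 (ID1, ID2, ID3, ID4, TCF3, TCF4, TCF12), 1 had an unadjusted p below 0.05 and limma voom with sample weights called 2. Their interactions ran from -0.24 for ID1 to 0.46 for ID4. With replicate 1 of untreated WT left out, edgeR called ID1 lower (-0.48, adjusted p = 0.0405) and TCF12 higher (0.18, adjusted p = 0.0443), and 2 tissue bHLH factors higher and 2 lower.

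AP-1 and immediate early genes had 2 higher responses, SPRY4 (1.24) and EGR2 (1.26), and 1 lower, FOSL2 (-0.49), among 29 tested (10.3%). Of 30 NF-kappaB targets and cytokines, IL8 and CCL2 had a higher and TNFAIP2 a lower response (10%). Of 39 interferon response genes, OASL was called higher and PARP9 (-0.47) and DTX3L (-0.56) lower (7.69%), and the list's median was -0.10. PARP9 and DTX3L form a protein complex, and overlap at their 5′ ends on chromosome 3, where counts from either strand cannot be told apart; both were called again with reverse-strand counts. COL3A1 was the 1 called gene of 24 collagens, falling from 360.5 to 374 to 91.4 to 95.4 CPM in KO and from 35.4 to 39.6 to 15.4 to 16.1 CPM in WT cells. SAMHD1, a dNTP hydrolase, was the 1 called among 17 nucleic acid sensing genes (-0.50), MYOCD, the cardiac and smooth muscle coactivator, the 1 among 21 contractile genes (1.29), and KDR, the VEGF receptor, the 1 among 5 endothelial markers tested (1.66).

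Most of these counts grew with replicate 1 of untreated WT left out, where 9.03% of all genes were called. The interferon list then held 4 higher and 7 lower responses, the NF-kappaB list 5 and 3, the collagens 1 and 5, the AP-1 list 3 and 3, the contractile list 1 and 3, the nucleic acid sensing list 0 and 2, the osteoblast list 3 and 1 and the endothelial markers 1 and 0.

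No gene was called by edgeR with all 12 libraries in 17 of the 28 lists. They were the 43 S phase and 54 G2/M phase genes, 26 genes of homologous recombination, 17 of end joining and 16 of break signalling, 29 p53 targets, 6 CDK inhibitors, 15 MHC class I and 14 MHC class II genes, 11 HDACs, 10 histone acetyltransferases, 24 cholesterol synthesis genes, 22 ATF4 targets, 10 marker genes of HDAC inhibition, 10 epithelial and 5 blood cell markers, and the 7 ID and E proteins. Of their 311 different genes 43 had an unadjusted p below 0.05 (13.8%, against 13.2% of all genes tested). DESeq2 called 6 (1.93%, against 3.74%) and limma voom with sample weights called 45 (14.5%, against 10.3%). With replicate 1 of untreated WT left out, edgeR called 44 of the 311 (14.1%, against 9.24% of the 22620 genes tested both ways), 31 higher and 13 lower. Responses were then called higher for 8 S phase genes and lower for 0, for 7 and 0 ATF4 targets, 4 and 1 G2/M genes, 3 and 0 genes each of homologous recombination and break signalling, 2 and 0 each of end joining and MHC class II, 2 and 2 HDACs and 1 and 0 cholesterol synthesis genes. Lower calls prevailed in the p53 targets, with 0 higher and 3 lower, the HDAC inhibition and the epithelial markers, with 0 and 2 each, and the CDK inhibitors and histone acetyltransferases, with 0 and 1 each. Among the direct targets of the drug, HDAC1 (0.07, SE 0.075), HDAC2 (0.11, SE 0.085) and HDAC3 (0.07, SE 0.09) had small interactions.

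Of the 54 named genes with a called interaction, 37 kept their call and sign when any 1 of the 12 libraries was left out, among them each of the genes described above by its values in all libraries except INHBA, BMP4 and DLX4. The other 17 lost it at least once, with adjusted p up to 0.159 (edgeR), among them BMP4, CYP4F3, DLX4, DTX3L, EGR2, FOSL2, HEY1, INHBA, KDR, MYOCD, PARP9, RP11-197B12.1, RTN1, RUNX2, TGFB3 and TNFAIP2. Of the 6 TGF-beta and BMP genes, TGFB2 and SMAD7 kept theirs throughout.

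Replicate 1 of the untreated WT cells was compared with its group by exonic length, in 5 classes of 3172 to 3177 genes of at least 1 CPM. Its median deviation from the mean of the other 2 replicates was 0.25 in the class of shortest genes (up to 2367 bases), on the log2 scale. It went through 0.17, 0.03 and -0.08 to -0.30 in the longest (7502 bases and over). The other 2 replicates deviate in the opposite sense because the mean each is set against contains replicate 1. The 9 libraries of the other groups stayed between -0.04 and 0.03. The median interaction went with it, from 0.09 in the shortest to -0.08 in the longest class. Without this library the class medians lay between -0.01 and 0.01. Of the interactions in the longest class 35 were higher and 73 lower with all libraries, and 269 higher and 253 lower without it. The split between higher and lower responses within a length class therefore changed with this library, while 487 of the 488 calls did not.

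**Figure D4:**
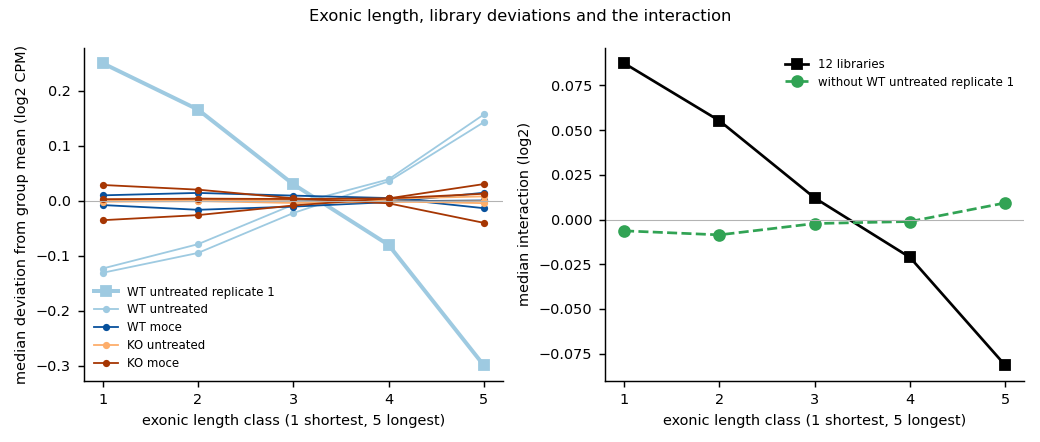
Left: median deviation of each of the 12 libraries (log2 CPM) over 5 classes of exonic length, 1 line a library. Each library is set against the mean of its group's other libraries, which the axis label calls the group mean. Replicate 1 of the untreated WT cells (thick line, squares) runs from 0.25 to -0.30. Right: median interaction (log2) in the same classes with all 12 libraries, from 0.09 to -0.08, and without that replicate, within 0.01 of 0.

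Called interactions were mainly in protein-coding genes, 442 of 15554 (2.84%), against 32 of 4003 lncRNA genes (0.799%). The share depended on level: it was 0.457% below 1 CPM on average, 2.98% between 1 and 10 CPM, 2.96% between 10 and 100 CPM and 2.35% above. Above 100 CPM 13 responses were higher and 40 lower, whereas from 1 to 10 CPM 92 were higher and 69 lower.

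The AID-DIvA libraries offer the same contrast in other samples, but after recovery, so the cell line and the stage cannot be told apart. Their titles and their treatment labels name opposite states for each of the 12 libraries. The titles were used, and by the treatment labels each AID-DIvA interaction would have the opposite sign and the untreated gap there would be the treated one. In a check added after the values were seen, the effect of treatment by title had the same sign as in U2OS for 4393 of the 6385 genes called in both lines in KO cells (68.8%) and for 3964 of 5680 in WT cells (69.8%), and the opposite sign for the rest; the effect in AID-DIvA was called for 45.6% of the genes tested in KO and 40.1% in WT cells. Of the neuronal genes called in both lines, 15 of 17 in KO and 13 of 15 in WT cells had the same sign, and of the marker genes of HDAC inhibition 4 of 6 and 3 of 6. By title SYP rose in AID-DIvA too (2.83 in KO and 2.07 in WT cells), as did OASL (2.76 and 2.91), while SOX2 (-1.88 and -2.70) and CXCL14 (-2.25 and -2.86) fell, the directions they had in U2OS. Other genes went the other way. CTNND2 (-0.39 in KO and -1.26 in WT cells), ADAMTS15 (-0.77 and -0.34) and RTN1 (-0.67 and -0.81) fell in AID-DIvA by title. In U2OS they rose in both genotypes. The interaction was called there for 258 of 21265 genes (1.21%), higher in KO cells for 0.762% and lower for 0.451%. Of the 488 genes, 481 were tested, 70 were called with the same sign (14.6% of these, and 27.2% of the 257 AID-DIvA genes tested in U2OS) and 4 with the opposite sign. Irrespective of the test, 363 had the same sign. PPARGC1A had nearly the same interaction in both (2.53, SE 0.23, adjusted p = 5.24e-05 in AID-DIvA, edgeR). The gene CPM, TNFRSF11B, SYP, RUNX2, SOX2, TGFBI, MFSD2A, ADRA1B, CYP24A1, NTM and SNX18P24 were also called with the same sign. An interaction of the same sign did not require the same response. By title, PPARGC1A in WT cells rose in U2OS (0.77) and fell in AID-DIvA (-0.58). The gene CPM rose in both genotypes in U2OS (2.18 in KO, 0.75 in WT) and fell in both in AID-DIvA (-0.30 and -1.34). In KO cells RUNX2 and CYP24A1 fell in U2OS (-0.98 and -0.86) and rose in AID-DIvA (0.43 and 1.09). SYP and SOX2 kept their directions.

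LMCD1 and OASL had no called interaction in AID-DIvA (0.43, SE 0.13, and -0.15, SE 0.23). The difference between the interactions, tested in one fit of all 24 libraries, was called for 143 of 23087 genes (0.619%, with 0.394% positive and 0.225% negative) and included both: -1.51 (adjusted p = 1.47e-05, edgeR) for LMCD1 and -2.52 (adjusted p = 1.03e-05, edgeR) for OASL. CTNND2 and BMP4 were called in AID-DIvA with the opposite sign (0.87 and 1.04), and their differences were called as well (2.28 and 1.64). These genes were chosen for their U2OS interactions, which each difference uses again.

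The untreated gap between the genotypes was also compared between the lines, a check added after the U2OS values were seen. Of the 488 genes, 420 had a called untreated gap in U2OS and 413 of these were tested in AID-DIvA: 314 had a called gap of the same sign there (76.0%) and 7 of the opposite sign. In AID-DIvA a gap was called for 28.4% of the genes tested (13.8% higher and 14.6% lower in KO). An interaction was called there for only 1.21%, so the shares that recurred cannot be compared between gap and interaction. Over all 5552 genes with a called untreated U2OS gap that were tested, 3471 had the same sign and a called gap (62.5%), and 38 the opposite. In untreated AID-DIvA cells LMCD1 was lower in KO cells by -1.22, OASL by -1.69 and CXCL14 by -0.95, while UNC13D was higher by 3.36 and ADRA1B by 1.14 on the log2 scale.

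**Figure D5:**
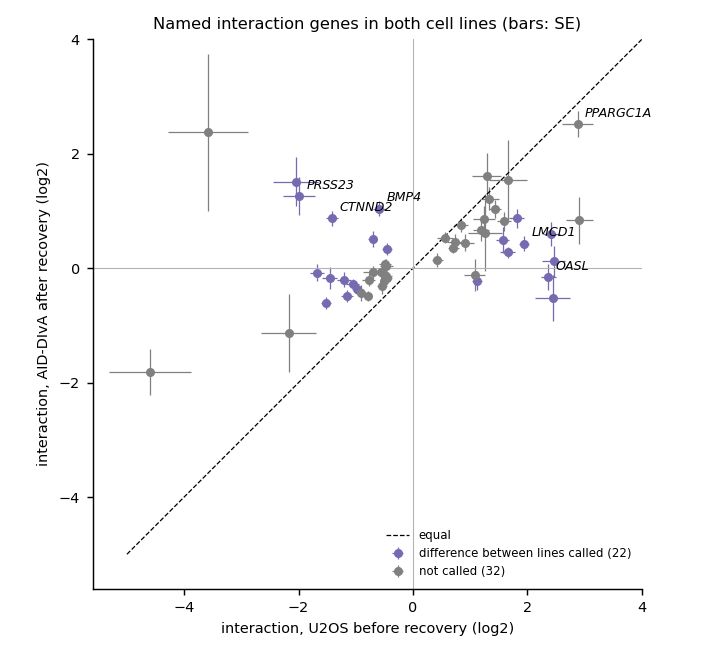
Interaction (log2) in U2OS before recovery (x axis) and in AID-DIvA after recovery (y axis) for the 54 named genes with a called U2OS interaction; bars are SE. The 22 genes in purple had a called difference between the lines, among them LMCD1, OASL, CTNND2, BMP4 and PRSS23. PPARGC1A lies close to the dashed line of equal values. The genes were chosen for their U2OS interactions, which leans the differences towards the opposite sign.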

How the data were processed

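Libraries were made from total RNA with a stranded kit and read from both ends. Using STAR for alignment (hg19/GRCh37) and featureCounts, the authors obtained the deposited counts of 57820 genes, raw and unpooled, from either strand and by strand. Versions are not given in the sources used here. The either-strand counts of all 12 U2OS libraries were tested with edgeR 4.0.16 under R 4.3.3 (TMM, filterByExpr, 4 groups in one robust quasi-likelihood fit, Benjamini-Hochberg over all genes tested); each SE is the log2 value over the square root of F. Total counts of 46285533 to 70692114 leave the spread between 3 replicates as the main limit of precision. AID-DIvA groups follow the sample titles, which the treatment labels contradict.

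Named genes have at least 1 CPM on average and keep their call without replicate 1 of the untreated WT cells: per direction the 10 smallest adjusted p and the 5 of greatest size, plus called members of 28 gene lists (up to 6 each) and ID3, LMCD1, OASL, ADRA1B, UNC13D, HDAC1, HDAC2 and HDAC3. Members and lists were chosen with earlier results of these data known. Alternatives included DESeq2 1.42.0 and limma 3.58.1 (voom with sample weights). The steps were tested on counts simulated from the fitted group means and spreads. No simulated library had a length bias of its own, so that test does not cover replicate 1 of untreated WT. Promoters are from RefSeq (GRCh38.p14), biotypes from GENCODE by gene ID (21945 matched). Some genes are not reported here.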

Additional observations from a re-analysis of the deposited data

Results flagged for a closer look

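Of the 54 named genes with a called interaction, 10 are listed here because treatment moved them in opposite directions in the genotypes, each effect called by edgeR at an adjusted p below 0.05. In 5 of them treatment raised the gene in KO and lowered it in WT cells, with these log2 interactions: LMCD1 1.94, MFSD2A 1.81, BHLHE41 1.66, MEF2C 2.46 and CCL2 1.18. In the other 5 it lowered the gene in KO and raised it in WT cells: ADRA1B -1.52, CYP24A1 -1.15, SLC22A5 -1.06, SMAD7 -0.52 and TNFAIP2 -0.45. The WT effect was the smaller one in several of them, for example 0.17 (SE 0.067, adjusted p = 0.0477) for SMAD7 and 0.15 (SE 0.062, adjusted p = 0.0461) for TNFAIP2, both from the edgeR fit.

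For 22 of the 54 the interaction differed between AID-DIvA cells after recovery and U2OS cells before it, in one edgeR fit of all 24 libraries. A difference was called for 17.8% of the 488 interaction genes and for 0.619% of all genes tested. The 54 were chosen for their U2OS interactions, and the difference uses those values again, so it leans against them by choice. Each of the 22 differences was opposite in sign to the U2OS interaction. The difference (AID-DIvA minus U2OS, log2) was negative for 9 genes: LMCD1 -1.51, OASL -2.52, CXCL14 -1.82, MFSD2A -0.94, VWA5B2 -1.08, GFPT2 -1.34, BHLHE41 -1.38, MEF2C -2.33 and SLN -2.95. It was positive for 13 genes: ADRA1B 0.92, UNC13D 1.60, CTNND2 2.28, SH2D3C 1.29, CYP24A1 0.66, NTM 0.61, SLC22A5 0.79, ZNF283 1.01, COL3A1 1.22, PRSS23 3.26, BMP4 1.64, TNFAIP2 0.78 and CYP4F3 3.56. Among these genes, ADRA1B, MFSD2A, CYP24A1 and NTM were called in AID-DIvA with the same sign as in U2OS, and CTNND2 and BMP4 with the opposite sign. The cell line and the stage cannot be told apart in this comparison. The AID-DIvA sign rests on the titles, which the treatment labels of those libraries contradict; by title, 68.8% of the genes whose treatment effect was called in both lines had the same sign in KO cells and 69.8% in WT cells. With 3 libraries a group, no test for single outlying libraries was made.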

How the results depend on the processing

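Of the 54 named interactions, 25 kept their call and sign under each of up to 24 alternatives (22 to 24 a gene), 12 lost it only in the test against a fold of 1.5, and none changed sign. The count of called interactions (488) was 846 with DESeq2, 775 with no filter on low counts, 2335 with voom and sample weights, 794 with all 24 libraries in one fit and 56 against a fold of 1.5. Leaving out 1 library gave from 257 (without replicate 1 of the untreated KO cells) to 2091 (replicate 1 of untreated WT left out); each library of the treated WT, untreated KO and treated KO groups lowered it by over 1.5 times, to at most 317. With 1 library left out, the treatment effect was called for 11633 to 15601 genes (KO) and 11606 to 14739 (WT). Genotype gaps numbered 4115 to 7904 untreated and 2863 to 8685 treated, and AID-DIvA interactions 122 to 297. Fewer libraries test less sharply, yet each upper U2OS value came without replicate 1 of untreated WT. The treated gap (4389 with all 12) does not compare that library, which only shares the fit. Chi-square per gene between replicates was 103 and 91.1 for its pairs and 2.97 to 12.5 for all others. Whether its spread lowered the counts with all 12 was not tested. Treated gaps came to 9602 with voom and 8267 from their 6 libraries alone, untreated gaps to 3132 from theirs. The difference of the interactions (143) came to 319 with DESeq2 and 432 once replicate 1 of untreated WT was left out. The share of narrower gaps (82.0%) was 76.8% with DESeq2 and 66.0% with voom, both added after seeing the data, and 66.0% without the same library; the cause was not tested.

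Without that library 7 list medians moved by more than the spread between libraries: to -0.13 for CDK inhibitors, 0.052 for tissue bHLH factors, -0.000535 for histone acetyltransferases, 0.034 for cholesterol synthesis, 0.13 for ATF4 targets, -0.0021 for epithelial and 0.13 for endothelial markers. Over 18 pairs of same-numbered libraries from different groups, the correlation of deviations ran from -0.06 to 0.36 (median 0.04, 5 over 0.1). Whether such libraries pair was not tested. With the replicate number as a block, 393 interactions were called (631 with length offsets as well, 681 with these alone), and 5 named genes lost their call. DESeq2's size factors shifted the median interaction by 0.0038.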
